A study of Mus musculus with 31 samples.

Results

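Fibroblast growth factor (FGF) receptors and the feedback genes that act downstream of them were described in RNA-seq of sorted mouse astrocytes. The 10 genes, out of 55401 in the files, were taken by symbol: Fgfr1, Fgfr2, Fgfr3, Fgfrl1, Spry1, Spry2, Spry4, Etv4, Etv5 and Dusp6. The study exposed mice to inflammatory cytokines or vehicle once or repeatedly and sorted their astrocytes, giving 4 groups of 3 libraries. Per the labels all mice were C57Bl/6 females aged 10 weeks, injected into the lateral ventricles of the brain. The titles of all libraries used begin with SPF. The cytokine groups received IL-1β at 100 ng/mL with TNF-α at 50 ng/mL, and the PBS groups received the vehicle. Groups labelled 1X had 1 injection, on day 7, and groups labelled 2X had 2, with the last on day 7. Astrocytes were sorted 18 to 24 hours after the last injection. The short description of the cytokine samples names TNF-α stimulation alone, whereas the protocol names both cytokines. The sort markers were not named in the sources used here. Nothing in the labels ties a library to 1 animal, so the p-values below speak only of the variation from library to library, which may be technical.

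FGF receptors are tyrosine kinases that bind FGF ligands together with heparan sulphate and pass the signal through adaptor proteins to the Ras-ERK cascade. ERK activity switches on the ETS factors Etv4 and Etv5 and a set of inhibitors, the Sprouty proteins and the ERK phosphatase Dusp6, so these genes are commonly read as targets of FGF and related growth factor signals. In the brain Fgfr3 is a gene of the astrocyte lineage, Fgfr2 is prominent in oligodendrocytes as well as astrocytes, and Fgfr1 is broadly expressed.

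Ligand choice by Fgfr1, Fgfr2 and Fgfr3 depends on which of a pair of neighbouring exons, IIIb or IIIc, completes the membrane-proximal immunoglobulin-like domain. The pair of Fgfr3, the most abundant of the receptors, is shown because it defines the receptor forms counted below. The sequences were read from the RefSeq copy of GRCm38 at GENCODE M21 coding exons, on the strand of the gene, and are in lower case throughout. The IIIb exon is 151 bases long and lies at chr5:33731281-33731431 (plus strand), just upstream of the IIIc exon, which is 145 bases long and lies at chr5:33732117-33732261. No transcript of the annotation holds both as coding exons.
Fgfr3 IIIb: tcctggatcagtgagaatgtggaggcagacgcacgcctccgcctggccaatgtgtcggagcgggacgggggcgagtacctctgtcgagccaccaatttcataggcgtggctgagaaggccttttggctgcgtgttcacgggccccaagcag
Fgfr3 IIIc: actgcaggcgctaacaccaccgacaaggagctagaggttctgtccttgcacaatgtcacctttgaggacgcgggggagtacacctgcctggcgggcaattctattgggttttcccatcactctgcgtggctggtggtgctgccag

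Library totals ran from 1878418 to 5521679 estimated counts, and a floor of 3 counts corresponds to 0.543 to 1.60 CPM (counts set to a common depth with TMM factors). All 10 genes passed the filter on low counts, as part of 14490 genes tested. All 12 astrocyte markers examined had counts in every library. Other cell types were also represented, with summed choroid plexus markers at 3936 to 29030 CPM and summed oligodendrocyte markers at 3125 to 7071 CPM, so a lower level in these bulk libraries cannot be told apart from a smaller share of the expressing cells. Levels of Lcn2 and Gfap, genes known to rise in reactive astrocytes, ran against the labels. Lcn2 was 363 to 570.1 CPM in the 3 libraries labelled 2X PBS and 1.20 to 15.0 CPM in those labelled 2X cytokine. Within the 1X groups it was 1076 and 776 CPM in 1X PBS replicates 2 and 3 and 797 CPM in 1X cytokine replicate 1, against 5.33 CPM in 1X PBS replicate 1 and 11.5 and 3.85 CPM in 1X cytokine replicates 2 and 3. Replicate 1 of both 1X groups therefore stood apart from its group, and these are the 2 libraries in which Lcn2 and Gfap went with the label. In the other 4 1X libraries and in the 2X groups they went against it. Group names below are those of the labels, and every direction between PBS and cytokine rests on them. Results that change without the 2 libraries are given both ways. Leaving both out was chosen after the data were seen, and they were libraries that stood apart from their own group. P-values and counts of calls without them therefore leave out part of the variation between libraries.

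Per transcript length, Fgfr3 was the most abundant of the 10 genes, at 585 ± 248 TPM (counts scaled by transcript length to a common sum, mean ± SD, n = 12 libraries). Its lowest library was at 161 TPM and its highest at 908 TPM, so even the lowest exceeded the highest value of every other member. Fgfr2 (85.2 ± 20.9 TPM), Etv5 (80.5 ± 34.0 TPM), Dusp6 (63.2 ± 11.0 TPM), Fgfr1 (62.5 ± 13.2 TPM), Spry2 (56.8 ± 18.9 TPM) and Fgfrl1 (44.7 ± 14.2 TPM) followed, each within the spread of its neighbours in that order. Etv4 was at 19.0 ± 8.46 TPM, Spry4 at 10.2 ± 1.93 TPM and Spry1 at 5.74 ± 1.94 TPM. Fgfr4, the remaining FGF receptor kinase, had 14 counts over all 12 libraries together and was not tested.

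**Figure D1:**
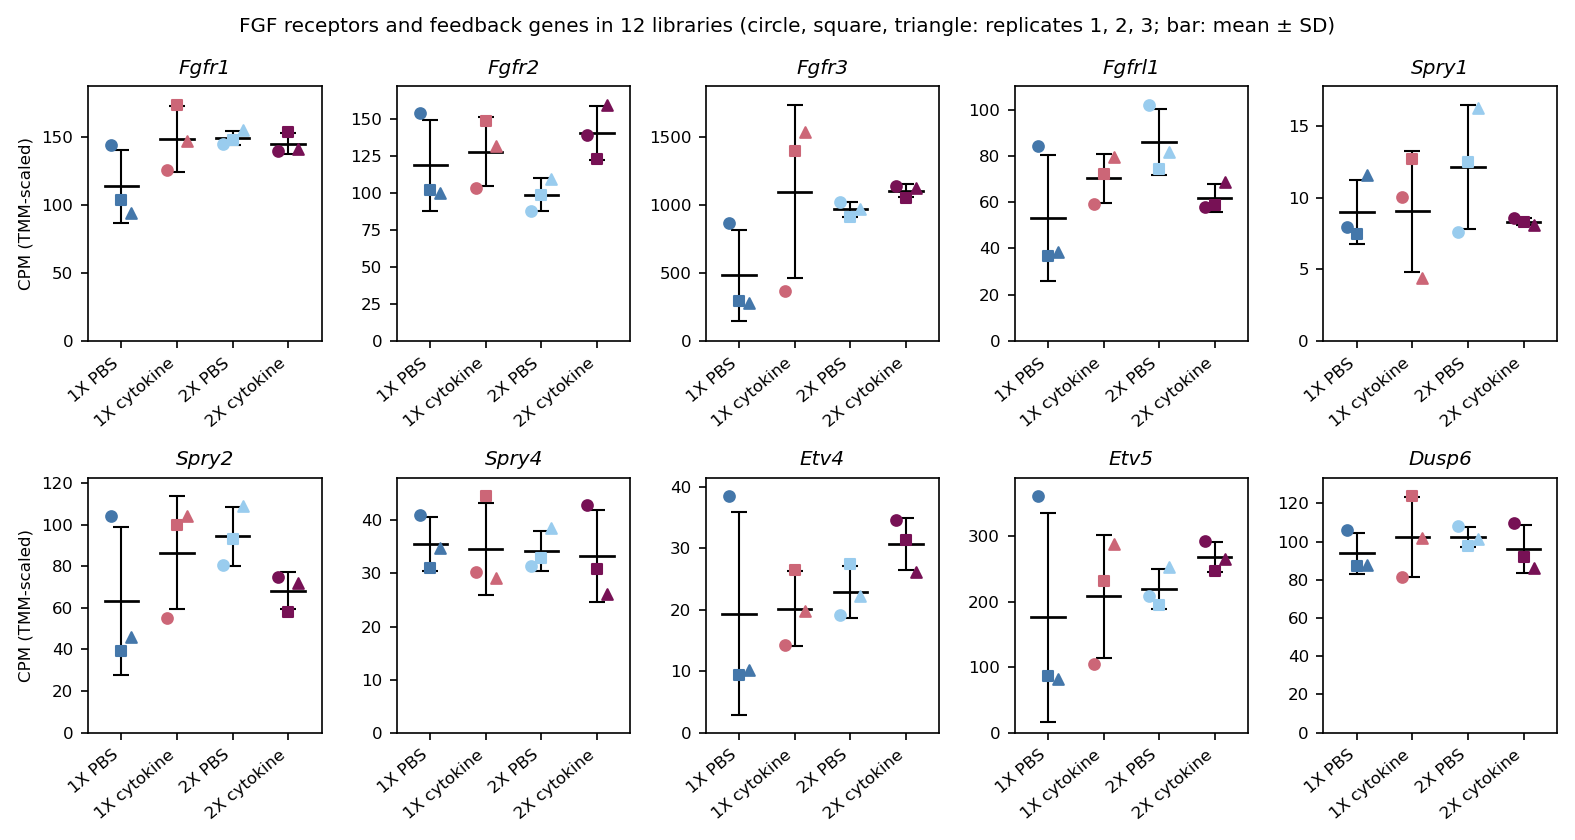
Level of each gene in CPM on TMM-scaled totals (y axis, linear from 0) by labelled group (x axis). Circles, squares and triangles are replicates 1, 2 and 3, and black lines are the mean ± SD of 3 libraries. For Fgfr3, Spry2, Etv4 and Etv5, replicates 2 and 3 of 1X PBS and replicate 1 of 1X cytokine are the lowest points of the plot.

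Fgfr3 encodes the receptor with the widest range among libraries, from 282 to 1532 CPM (5.42-fold). Its level was 869, 295 and 282 CPM in 1X PBS replicates 1, 2 and 3, and 367, 1394 and 1532 CPM in 1X cytokine. It was 1022, 912 and 971 CPM in 2X PBS and 1142, 1050.0 and 1122 CPM in 2X cytokine. The 1X groups overlapped because replicate 1 of each lay with the other group, whereas the 2X libraries stayed in a narrow band in which every cytokine library was above every PBS library. The mean difference between 1X cytokine and 1X PBS was 1.19 on the log2 scale (SE 0.50), with an adjusted p of 0.866 by edgeR's quasi-likelihood test with Benjamini-Hochberg adjustment. Between 2X cytokine and 2X PBS it was 0.19 (SE 0.49, adjusted p 0.947 by the same test). Without both 1X replicate 1 libraries, Fgfr3 was higher in 1X cytokine than in 1X PBS by 2.36 (SE 0.11, adjusted p 6.24e-08 by edgeR, 2 libraries against 2). The 2 libraries left out are those in which Fgfr3 lay with the other group, so this SE and adjusted p do not measure that variation between libraries. The 4 1X libraries kept there are those in which Lcn2 went against the label, high in PBS and low in cytokine, so the direction of this difference depends on those labels.

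Fgfr1, whose product is the broadly expressed receptor of the family, varied less, between 93.9 and 174 CPM. It was 144, 103 and 93.9 CPM in 1X PBS and 125, 174 and 147 CPM in 1X cytokine. The 2X libraries were alike, at 145, 148 and 155 CPM in PBS and 139.6, 154 and 141 CPM in cytokine. The same 3 1X libraries that were lowest for Fgfr3 were lowest for Fgfr1, and the 2X groups overlapped. The difference between 1X cytokine and 1X PBS was 0.39 (log2, SE 0.17, adjusted p 0.866 by edgeR's quasi-likelihood test).

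Fgfr2 had another pattern, with its lowest library and its lowest group mean in 2X PBS, at 87.6, 98.8 and 109.8 CPM. It was 139.6, 123 and 159.6 CPM in 2X cytokine, and these libraries were all above the 2X PBS libraries. In the 1X groups it was 154, 102 and 100.0 CPM with PBS and 103, 149 and 132 CPM with cytokine, which overlapped. In the fit of all 12 libraries the 2X difference was 0.51 (log2, SE 0.20, adjusted p 0.463 by edgeR's quasi-likelihood test). When the 6 libraries of the 2X groups were fitted alone, Fgfr2 was higher in 2X cytokine by 0.52 (SE 0.12, adjusted p 0.0174 by the same test). The common biological coefficient of variation was 0.237 over 12 libraries and 0.114 in the 2X groups alone. Between the 2X groups, oligodendrocyte markers moved with Fgfr2. Their summed level was 3125 to 4549 CPM in 2X PBS and 5896 to 7071 CPM in 2X cytokine, and 8 of 12 were higher in the same fit. In 1X PBS replicates 1 and 2 these markers were alike, at 6740 and 6804 CPM, while Fgfr2 was 154 and 102 CPM. Summed astrocyte markers differed between the same libraries, at 31974 and 8618 CPM. The part of either set of markers in the Fgfr2 differences was not tested.

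Fgfrl1 encodes an FGF-binding receptor that lacks the kinase domain. It was 84.4, 36.6 and 38.5 CPM in 1X PBS, 59.0, 72.2 and 79.7 CPM in 1X cytokine, 102.0, 74.5 and 81.7 CPM in 2X PBS and 57.8, 58.8 and 68.7 CPM in 2X cytokine. In the 2X groups its direction was opposite to that of Fgfr2, with every cytokine library below every PBS library. The difference was -0.47 (log2, SE 0.28, adjusted p 0.645) in the fit of 12 libraries and -0.45 (SE 0.13, adjusted p 0.0607) in the 2X libraries alone, both by edgeR's quasi-likelihood test, and neither passed the threshold of 0.05.

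Among the Sprouty genes, which encode inhibitors of receptor tyrosine kinase signalling, Spry2 had the highest level. It was 104, 39.3 and 46.2 CPM in 1X PBS and 55.3, 99.8 and 104 CPM in 1X cytokine. It was 80.8, 93.1 and 109 CPM in 2X PBS and 75.0, 58.0 and 72.0 CPM in 2X cytokine. The 3 lowest 1X libraries were those that were lowest for Fgfr3, and the 2X groups did not overlap, with cytokine below PBS. The 2X difference was -0.47 (log2, SE 0.34, adjusted p 0.739) over 12 libraries and -0.46 (SE 0.13, adjusted p 0.0565) in the 2X libraries alone, by edgeR's quasi-likelihood test. Spry4 stayed between 26.1 and 44.5 CPM and Spry1 between 4.40 and 16.3 CPM, with overlapping groups in all 4 pairs of groups compared. Spry1 rested on only 8 to 71 estimated counts per library.

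The ETS factors Etv5 and Etv4, transcription factors induced by ERK, had the widest relative ranges after Fgfr3, at 4.45-fold and 4.08-fold. Etv5 was 361, 85.9 and 81.2 CPM in 1X PBS and 104, 231 and 289 CPM in 1X cytokine. It was 209.5, 195 and 254 CPM in 2X PBS and 292, 247 and 266 CPM in 2X cytokine. Thus 1X PBS replicate 1 was the highest of the 12 libraries for Etv5 while its fellow replicates were the lowest. Etv4 was 38.4, 9.42 and 10.2 CPM in 1X PBS, 14.3, 26.5 and 19.8 CPM in 1X cytokine, 19.0, 27.5 and 22.2 CPM in 2X PBS and 34.6, 31.3 and 26.1 CPM in 2X cytokine, with the same libraries at both ends. The 1X difference was 0.24 (log2, SE 0.51) for Etv5 and 0.09 (SE 0.47) for Etv4, with adjusted p-values of 0.961 and 0.989 by edgeR's quasi-likelihood test.

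Dusp6, the phosphatase that dephosphorylates ERK, was the steadiest of the 10 genes, with 1.52-fold between its lowest and highest library. It was 106, 87.3 and 87.9 CPM in 1X PBS, 81.6, 124 and 102 CPM in 1X cytokine, 108, 97.7 and 101 CPM in 2X PBS and 110.0, 91.9 and 86.1 CPM in 2X cytokine. No pair of groups was separated. Its difference was 0.12 (log2, SE 0.16) in the 1X groups and -0.09 (SE 0.16) in the 2X groups, with adjusted p-values of 0.918 and 0.919 by edgeR's quasi-likelihood test.

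1X cytokine against 1X PBS asks what a single cytokine exposure changes. With all 12 libraries fitted, 0 of 10 genes were called, as were 0% of all genes tested. At an unadjusted p under 0.05 there were 2 of 10 (Fgfr1 and Fgfr3), against 5.4% of all genes tested, and DESeq2 called 0 of the 10 in this and the other 4 comparisons. The median difference was 0.18 over the 10 genes and -0.01 over all genes, and 9 of 10 had a value above 0. No member had groups without overlap, against 6.18% of all genes. Without 1X PBS replicate 1 alone, 6 of 10 were higher in 1X cytokine by edgeR (Fgfr1, Fgfr3, Fgfrl1, Spry2, Etv4 and Etv5), against 4.3% of all genes tested called in that direction. Without both replicate 1 libraries, 7 of 10 were higher in the libraries labelled 1X cytokine, Fgfr2 being added, against 12% of all genes. The direction of these 7 calls rests on the same 4 libraries whose Lcn2 and Gfap went against their labels.

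In those 10 libraries the log2 differences between 1X cytokine and 1X PBS, by edgeR's quasi-likelihood test, were 0.73 for Fgfr1, 0.50 for Fgfr2, 2.36 for Fgfr3, 1.03 for Fgfrl1, 1.27 for Spry2, 1.27 for Etv4 and 1.66 for Etv5. Spry4 (0.21), Dusp6 (0.39) and Spry1 (-0.08) did not pass. All 12 astrocyte markers were also higher in 1X cytokine in that fit, and their part in these differences was not tested.

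2X cytokine against 2X PBS asks what cytokine changes when both injections carry it. In the fit of 12 libraries 0 of 10 genes were called, against 0.0345% of all genes tested, and 1 of 10 (Fgfr2) had an unadjusted p under 0.05, against 9.68%. In the 6 libraries alone 1 of 10 was higher (Fgfr2), against 2.43% of all genes higher and 7.74% called in either direction. Without both 1X replicate 1 libraries it was again Fgfr2 alone, against 1.86% of all genes higher. 4 of 10 had groups without overlap (Fgfr2 and Fgfr3 higher, Fgfrl1 and Spry2 lower in 2X cytokine), against 25.3% of all genes. The median difference was -0.045 over the 10 genes and -0.0034 over all genes.

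2X PBS against 1X PBS compares the schedules in the libraries labelled PBS, and it shares its 2X PBS and 1X PBS libraries with the comparisons above. Of the 10 genes 0 were called with 12 libraries, as were 0% of all genes tested, and 2 of 10 (Fgfr1 and Fgfrl1) had an unadjusted p under 0.05, against 6.31%. Fgfr1 and Fgfr3 had groups without overlap, both higher in 2X PBS, against 11.4% of all genes. The log2 difference was 0.39 (SE 0.17) for Fgfr1, 1.01 (SE 0.50) for Fgfr3 and 0.70 (SE 0.28) for Fgfrl1, with adjusted p-values of 0.776, 0.776 and 0.763 by edgeR's quasi-likelihood test. Without 1X PBS replicate 1, 6 of 10 were higher in 2X PBS (Fgfr1, Fgfr3, Fgfrl1, Spry2, Etv4 and Etv5), against 4.97% of all genes tested, and without both replicate 1 libraries again 6 of 10, against 10.1%. Fgfr3 was then higher by 1.77 (SE 0.11, adjusted p 8.33e-07 by edgeR). The 1X PBS libraries kept in that fit had Lcn2 at 1076 and 776 CPM, against their label, so this comparison also rests on the labels. In that fit all 12 astrocyte markers were also higher in 2X PBS and 8 of 12 oligodendrocyte markers were lower, and their part in the member differences was not tested.

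2X cytokine against 1X cytokine asks whether a repeated exposure leaves another level than a first one. It called 0 of 10 genes, against 0.0276% of all genes tested, and no member had groups without overlap, against 12.5% of all genes. At an unadjusted p under 0.05 there were 0 of 10, against 7.01%. The largest difference was that of Etv4, at 0.62 (log2, SE 0.46, adjusted p 0.818 by edgeR's quasi-likelihood test). Without both 1X replicate 1 libraries the count was again 0 of 10, against 0.0202% of all genes.

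The difference between the 2X and the 1X cytokine responses was tested as an interaction. It called 0 of 10 genes with all 12 libraries, as it did 0% of all genes tested, and 1 of 10 had an unadjusted p under 0.05, against 5.2%. The smallest adjusted p was that of Fgfrl1 (-0.88 on the log2 scale, SE 0.39, adjusted p 0.940 by edgeR's quasi-likelihood test). Without both 1X replicate 1 libraries 5 of 10 were lower, that is, their 1X difference was above their 2X difference, against 6.12% of all genes tested. These were Fgfr1 (-0.76), Fgfr3 (-2.16), Fgfrl1 (-1.47), Spry2 (-1.73) and Etv5 (-1.35). All 12 astrocyte markers were lower in the same fit, and their part was not tested. The call of these genes therefore rests on leaving out the 2 libraries, and its direction on the labels of the 1X libraries kept.

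**Figure D2:**
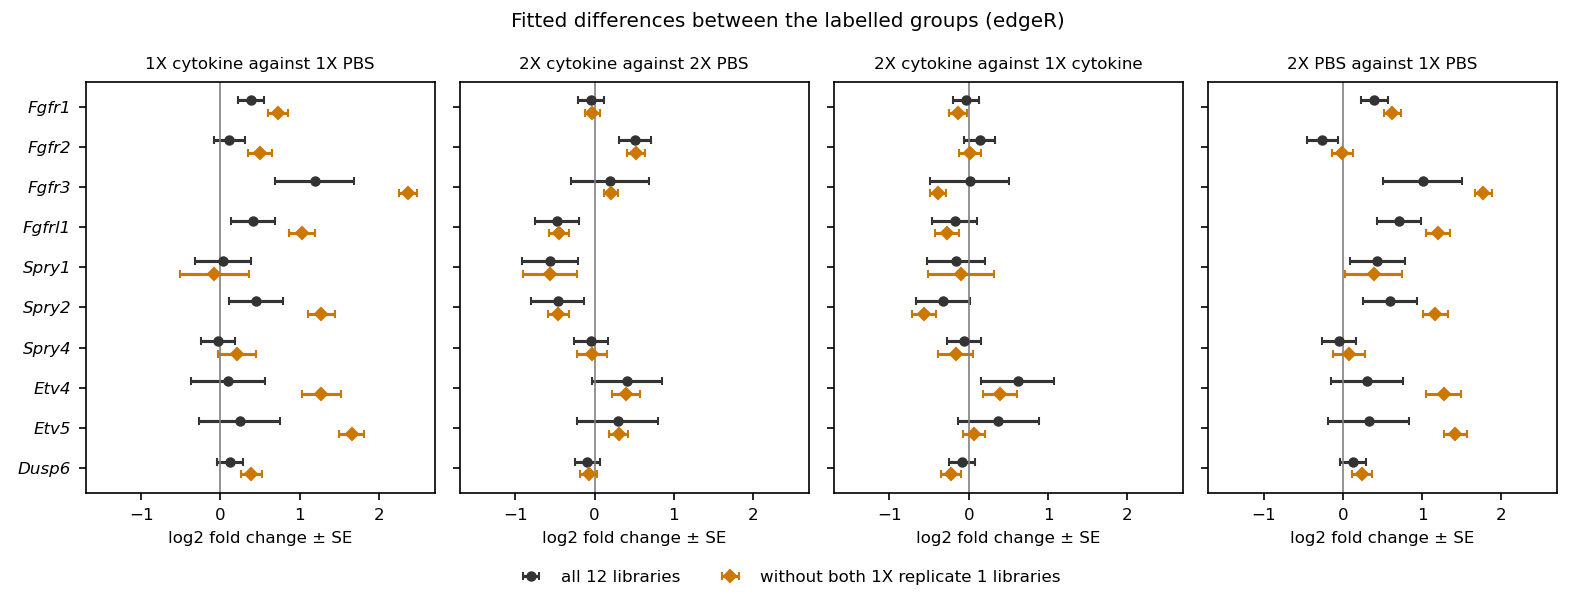
Fitted log2 fold change ± SE (x axis) of each gene (y axis) in 4 comparisons of the labelled groups, with all 12 libraries (black circles) and without both 1X replicate 1 libraries (orange diamonds). The orange points lie to the right of the black ones for Fgfr3, Fgfrl1, Spry2, Etv4 and Etv5 in both comparisons with 1X PBS, and the points nearly coincide for 2X cytokine against 2X PBS.

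Fgfr1, Fgfr3, Spry2, Etv4 and Etv5 shared their 3 lowest libraries, 1X PBS replicates 2 and 3 and 1X cytokine replicate 1. Of all genes tested, 10.8% had these 3 libraries lowest. Astrocyte markers were low in the same libraries, with a summed level of 8618, 8363 and 12116 CPM, against 21220 to 31974 CPM in the other 9. Markers of some other cell types were high there. Summed choroid plexus markers were 26893, 27368 and 29030 CPM, against 3936 to 21642 CPM in the other 9. Summed monocyte, macrophage and neutrophil markers reached 1960, 2057 and 609 CPM, against 13.8 to 548 CPM in the other 9. Summed endothelial markers reached 293, 360 and 291 CPM, against 125 to 216 CPM. Oligodendrocyte markers, at 6804, 5651 and 6491 CPM, lay within the range of the other 9 (3125 to 7071 CPM). Microglia markers were high in 1X PBS replicates 2 and 3, at 1655 and 1824 CPM, but 648 CPM in 1X cytokine replicate 1, within the 428 to 1196 CPM of the other 9. The 3 libraries also had high Lcn2, as did the 2X PBS libraries, in which Fgfr3 was 912 to 1022 CPM.

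Set beside the astrocyte markers, none of which is a member, the genes behaved differently from each other. Etv5 amounted to 8.62 to 11.3 CPM per 1000 CPM of summed astrocyte markers, a 1.31-fold range against 4.45-fold for its CPM, and 1X PBS replicates 2 and 3 were at 9.97 and 9.71. Etv4 ranged 1.76-fold on this scale, from 0.727 to 1.28. Spry2 ranged 2.32-fold, from 2.38 to 5.52, and its lowest values were now those of 2X cytokine, at 2.62, 2.38 and 2.91.

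Fgfr3 still ranged 2.12-fold beside the markers. It was 27.2, 34.2 and 33.8 CPM per 1000 in 1X PBS and 30.3, 57.6 and 56.3 in 1X cytokine, and 40.5 to 48.1 in 2X PBS and 39.9 to 45.4 in 2X cytokine. On this scale 1X PBS replicate 1 lay with the other 1X PBS libraries and 1X cytokine replicate 1 remained apart from its group. The summed markers themselves ran from 8363 to 31974 CPM, so a gene nearly flat in CPM must vary more on this scale. For 5 of 10 members the range became wider, and the share of all genes for which it did was not computed. Fgfr1, Fgfr2 and Dusp6 ranged 2.66-fold, 2.89-fold and 3.17-fold, against 1.85-fold, 1.82-fold and 1.52-fold for CPM. Spry1 ranged 8.59-fold against 3.70-fold, and Spry4 3.94-fold against 1.71-fold. Fgfrl1 changed little, at 2.41-fold against 2.79-fold. These ratios describe the libraries, and the part of cell composition in the member levels was not tested.

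**Figure D3:**
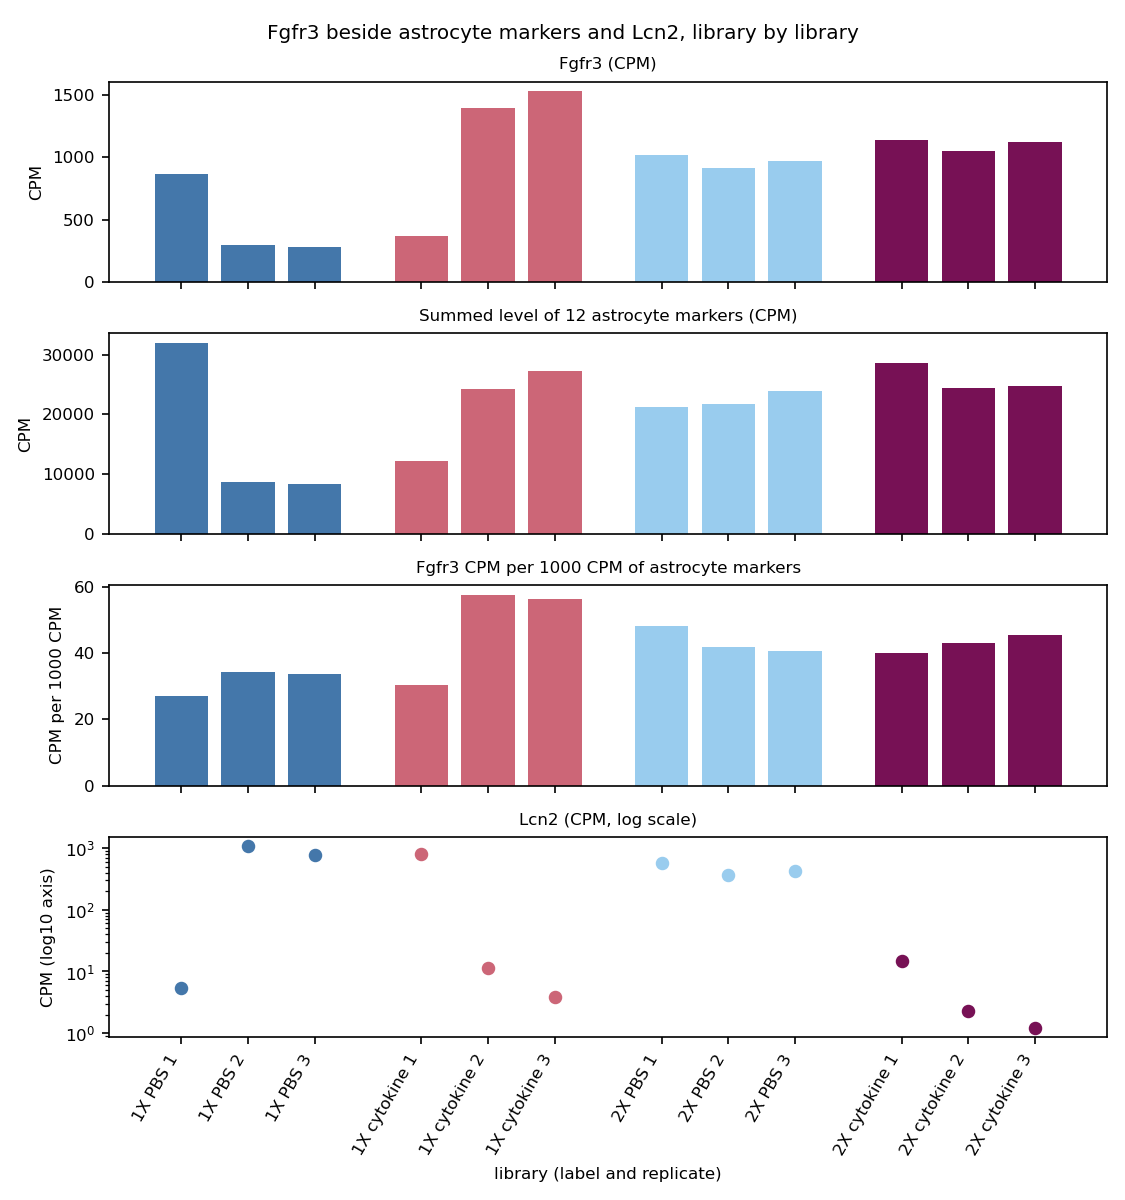
From top to bottom, the level of Fgfr3, the summed level of 12 astrocyte markers, the ratio of the former to the latter, and Lcn2 (log10 axis), in each of 12 libraries named by label and replicate (x axis). Bars start at 0. Fgfr3 and the astrocyte markers are low in 1X PBS 2, 1X PBS 3 and 1X cytokine 1, where Lcn2 is at 776 to 1076 CPM.

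The genes most like each member were taken as those with the highest Pearson r of log2(CPM + 1) over the 12 libraries among 11765 protein-coding genes, and they share libraries and depth with it. For Fgfr3 they included Ttyh1 (r = 0.995) and Acsl3 (0.982). For Etv5 they were Slc25a18 (0.994), Phyhipl (0.994) and Ddah1 (0.990), for Etv4 Thrsp (0.973), Jkamp (0.968) and Lnx1 (0.966), and for Fgfr1 Zfpm2 (0.978), Notch1 (0.956) and Pcdh17 (0.951). Fgfr2 was nearest to Spock3 (0.928), Fgfrl1 to Tmub1 (0.963), Spry1 to Phip (0.950), Spry4 to Sdad1 (0.913) and Dusp6 to Fam214a (0.920). Between members, r was 0.916 for Fgfr3 and Etv5, 0.908 for Etv4 and Etv5, 0.902 for Fgfr3 and Fgfr1, and -0.18 for Fgfr3 and Spry1.

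The choice between IIIb and IIIc, shown for Fgfr3 at the start, was read in the 3 receptors. On average 82.7% of Fgfr3 counts (74.4 to 88.0% over 12 libraries) were assigned to transcripts with the IIIc exon, 0.615% (0 to 2.80%) to transcripts with the IIIb exon, and 16.7% to transcripts with neither as a coding exon. For Fgfr1 the shares were 43.3% IIIc, 22.6% IIIb and 34.2% neither, with IIIb between 8.97 and 37.0% in single libraries. For Fgfr2 they were 36.8% IIIc, 13.7% IIIb and 49.5% neither. The class without either exon is made of partial and unspliced annotations in part. Fgfr1-206, at 24.1% of Fgfr1 counts, is a retained-intron transcript whose sequence runs over the IIIc exon and most of the IIIb exon. Fgfr2-217, at 39.8% of Fgfr2 counts, has 7 exons and does not overlap either exon of the pair. The Fgfr2 share without either exon was 50.6 ± 9.91% in 2X PBS and 51.1 ± 4.49% in 2X cytokine (SD, n = 3 each) and overlapped between them. Of the Fgfr2 counts given to the pair, IIIc took 72.0 to 81.4% in 2X PBS and 65.6 to 70.4% in 2X cytokine, without overlap. It took 74.8 to 85.1% in 1X PBS and 61.8 to 77.1% in 1X cytokine, which overlapped. These differences were not tested.

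IIIc thus had the larger mean share of the pair in all 3 receptors. In Fgfr3 the IIIc share was 79.3 ± 4.08% in 1X PBS, 82.2 ± 6.99% in 1X cytokine, 84.8 ± 0.446% in 2X PBS and 84.6 ± 0.510% in 2X cytokine (SD, n = 3 each), with overlap between the 1X groups and between the 2X groups. The cytokine groups overlapped too. The PBS groups did not, at 74.7 to 82.3% in 1X PBS and 84.5 to 85.3% in 2X PBS. These shares come from kallisto, which divides reads between transcripts by a model, so they were described and not tested.

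**Figure D4:**
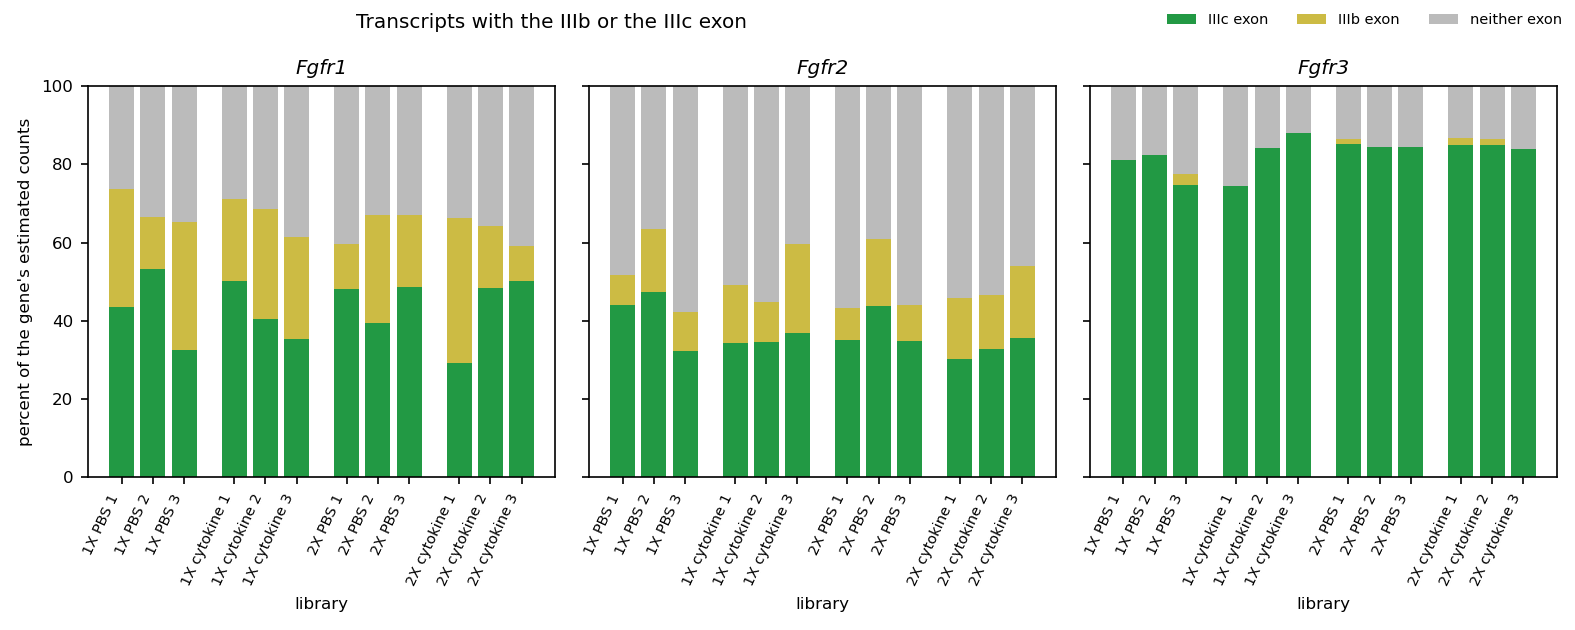
Percent of each receptor gene's estimated counts (y axis) given to transcripts with the IIIc exon (green), the IIIb exon (yellow) or neither (grey), in each library (x axis). IIIc transcripts take 74.4 to 88.0% in Fgfr3, while Fgfr1 and Fgfr2 are divided among all 3 classes.

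Of 18 FGF ligand genes, 3 passed the filter (Fgf1, Fgf2 and Fgf7) and 0 were called in any comparison, with or without both 1X replicate 1 libraries. Fgf1, a ligand that binds all FGF receptors, was the most abundant at 67.9 ± 12.3 TPM and 126 to 196 CPM. It was 170.4 ± 11.3 CPM in 2X cytokine and 139 ± 11.8 CPM in 2X PBS (SD, n = 3 each), without overlap, and the difference of 0.29 (log2, SE 0.14) had an adjusted p of 0.550 by edgeR's quasi-likelihood test. Fgf7 and Fgf2 were at 3.14 and 1.86 TPM.

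Of 13 co-receptors and FGF-binding proteins, 9 were tested and 0 were called with 12 libraries. Sdc4, a heparan sulphate proteoglycan, led at 593 ± 101 TPM, close to the level of Fgfr3. Kl, the co-receptor for the hormone-like FGF23, ranged from 67.1 to 562 CPM and is also a marker of the choroid plexus in the list used here. Flrt1, a membrane protein that binds FGF receptors, was 13.2 ± 4.76 CPM in 1X PBS and 25.9 ± 10.8 CPM in 1X cytokine, a difference of 0.96 (log2, SE 0.33, adjusted p 0.866 by edgeR's quasi-likelihood test). It was 1.60 without both 1X replicate 1 libraries (SE 0.23, adjusted p 0.000146 by the same test). In that fit 2 of 9 were higher in 1X cytokine than in 1X PBS (Flrt1 and the proteoglycan Sdc3, by 1.03), against 12% of all genes higher. In 2X PBS against 1X PBS the same pair was higher, against 10.1% of all genes, and Flrt3 was lower, against 8.47%. Both were lower in the difference between the responses, against 6.12%.

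All 21 adaptor and Ras-ERK genes were tested and 0 were called with 12 libraries. In the 2X libraries alone 1 of 21 was lower, the adaptor Shc1, at 68.2 ± 4.59 CPM with cytokine and 91.0 ± 9.20 CPM with PBS (-0.40 on the log2 scale, adjusted p 0.0459 by edgeR's quasi-likelihood test), against 5.31% of all genes lower. Its adjusted p was 0.438 with 12 libraries and 0.0361 without both 1X replicate 1 libraries, where it was again the gene called, against 5.16% of all genes lower. In 1X cytokine against 1X PBS that fit called 3 of 21 higher (Plcg1, Pik3ca and Map2k1), against 12% of all genes, and 2 of 21 lower (Shc1 and the ubiquitin ligase Cbl), against 11.5%. The shares called in these comparisons were close to those of all genes. In 2X PBS against 1X PBS the fit without both libraries called 0 of 21, against 10.1% of all genes higher and 8.47% lower. In the difference between the responses it also called 0 of 21, against 3.21% higher and 6.12% lower.

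Of 18 other ERK feedback and target genes 16 were tested, and again 0 were called with 12 libraries. The immediate early genes Fos (1282 ± 241 TPM) and Egr1 (413 ± 85.9 TPM) were the most abundant. In the 2X libraries alone Egr1 was higher with cytokine, at 958 ± 74.1 CPM against 735 ± 45.8 CPM with PBS (adjusted p 0.0232 by edgeR's quasi-likelihood test, n = 3 each). It was the 1 gene of 16 called there, against 2.43% of all genes higher. The call was absent with 12 libraries (adjusted p 0.715) and without both 1X replicate 1 libraries (adjusted p 0.0858). Dusp5, a nuclear ERK phosphatase, was 10.3 ± 6.97 CPM in 1X PBS and 2.20 ± 2.35 CPM in 1X cytokine, a difference of -2.02 (log2, SE 0.72, adjusted p 0.866 by the same test). It was -3.59 without both 1X replicate 1 libraries (SE 0.64, adjusted p 0.000953 by the same test). The 1X cytokine level of Dusp5 lay near the floor of 3 counts, which was 0.743 to 1.60 CPM in that group on unscaled totals. The size of its difference is therefore uncertain. In the fit without both libraries 3 of 16 were higher in 1X cytokine (Spred1, Spred2 and Dusp7), against 12% of all genes, and 5 of 16 were lower (Dusp5, Fos, Egr1, Ier2 and Ier3), against 11.5%. In 2X PBS against 1X PBS, Spred1 and Spred2 were higher and the same 5 genes lower, against 10.1% and 8.47% of all genes. In the difference between the responses 4 of 16 were higher (Egr1, Fos, Ier2 and Ier3), against 3.21% of all genes, and 1 of 16 was lower (Spred1), against 6.12%. These directions also rest on the labels of the 1X libraries kept.

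**Figure D5:**
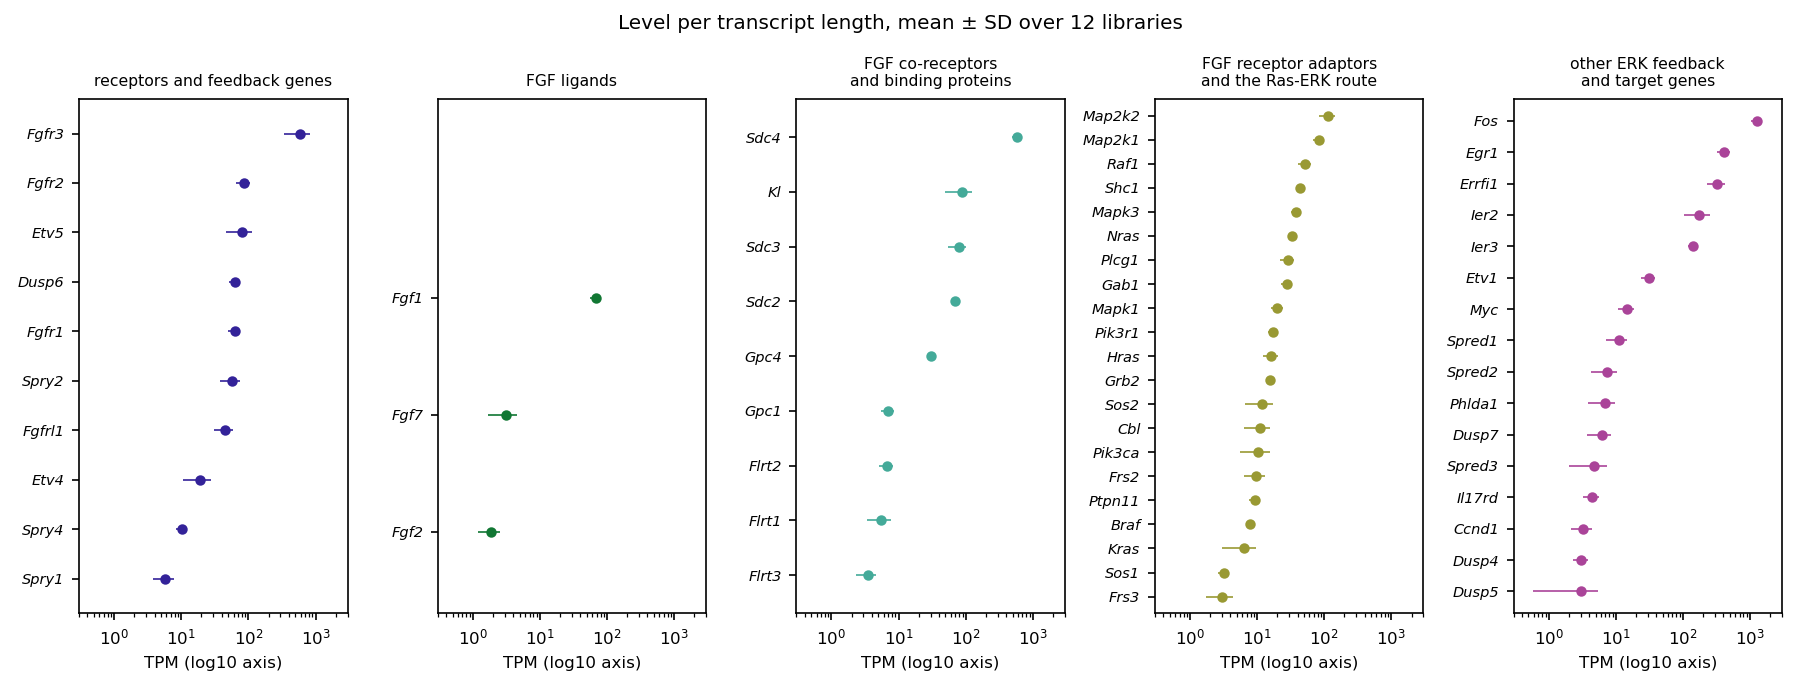
Mean TPM ± SD over 12 libraries (x axis, log10) of the receptors and feedback genes and of the tested genes in each pathway list (y axis). Fgfr3 at 585 TPM and Sdc4 at 593 TPM lead the panels of receptors and of co-receptors, and Fgf1 at 67.9 TPM leads the ligands.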

How the data were processed

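Of the series, 12 RNA-seq libraries were used, grouped by their titles. 19 ATAC-seq samples were not analysed here, and 10 of them have no group because title and treatment label contradict each other. Per the labels' protocols, libraries were made by SMART-seq2, and kallisto 0.46.1 assigned the reads to transcripts of mouse GRCm38. Per the file headers, each deposited file gives an estimated count, a TPM value and an effective length (in bases, another value) per transcript. The deposited estimated counts are not scaled between libraries, and the deposited TPM values are scaled to a common sum. No source used here states whether counting used strand, which leaves genes that overlap, or run antisense to each other, uncertain.

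Estimated counts were summed per gene and rounded. Genes kept by filterByExpr (14490) were tested with edgeR 4.0.16 (R 4.3.3), TMM scaling and the quasi-likelihood test in one fit of 12 libraries, with Benjamini-Hochberg adjustment over all genes and a threshold of 0.05. Each standard error was obtained from the log2 fold change and its F statistic. The procedure was tested on simulated data. Alternatives were DESeq2 1.42.0, RLE scaling, other filters, limma 3.58.1 on log2(TPM + 0.1) and log2(TPM + 1), an effective length offset, the libraries of each comparison alone, a replicate block, and leaving out each library. Leaving out both 1X replicate 1 libraries was added after the data were seen. Floors cover counting error only, because PCR duplicates were not removed by molecular identifiers.

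The members, the pathway and marker lists and the alternatives were chosen with earlier results of these data known. Genes named beside the members were, per pathway list and comparison, up to 3 with the smallest p and a mean CPM of at least 5, the 2 with the highest TPM, and the 3 genes most like each member. Fgfr4 and the pathway genes called without both 1X replicate 1 libraries were named after their values were seen. Only some of the genes this rule gives are printed, and some genes and exon sequences are not reported here. Gene and exon positions are those of GENCODE M21, and all 10 members have the same versioned identifier in the files. Fgfr1 (ENSMUSG00000031565.18) lies on chromosome 8 from 25513654 to 25575718, Fgfr3 (ENSMUSG00000054252.18) on chromosome 5 from 33721674 to 33737068, Fgfrl1 on chromosome 5 from 108692382 to 108706924, Etv5 on chromosome 16 from 22381309 to 22439719 and Dusp6 on chromosome 10 from 99263231 to 99267489.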

Additional observations from a re-analysis of the deposited data

How the results depend on the processing

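Of 1085 log2 fold changes recomputed under alternatives, 981 kept their direction and side of the threshold. Another 32 passed the threshold where they had not, and 72 changed sign. Etv5 in the difference between the responses without both 1X replicate 1 libraries changed sign and also passed. It is counted among the 72. No call could be lost, because the fit of 12 libraries called 0 members. DESeq2, RLE scaling and a mean CPM of at least 10 changed no direction or call. For 1X cytokine against 1X PBS, the count of members called was 1 with no filter on low counts (Fgfr3, adjusted p 0.0251 by edgeR). That setting called 251 of 33574 genes tested. The count of members was 7 without both 1X replicate 1 libraries. It ran from 0 to 6 when single libraries were left out, with 6 without 1X PBS replicate 1. For 2X cytokine against 2X PBS it was 1 in the 6 libraries alone and 1 without both libraries. For 2X PBS against 1X PBS it was 6 without both and 0 to 6 without single libraries. For the difference between the responses it was 5 without both. Where a group was left with 2 libraries, the spread shared by all groups was used.

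Deviations from the group means showed no clear pairing by replicate number. Over 18 same-numbered pairs r ran from -0.623 to 0.163, with 2 over 0.1. With 3 libraries a group, and replicate 1 of both 1X groups apart from its group, this cannot decide whether equal numbers share a batch. With the replicate number as a block 0 members were called in each comparison, Fgfr3 in 2X against 1X cytokine became -0.020 and Etv5 in the difference between the responses became -0.13.

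Other sign changes, all of values short of the threshold except Etv5 without both libraries, were as follows, and the cause was not tested. With the effective length offset, 2X against 1X cytokine became 0.13 for Fgfr1, -0.0086 for Fgfr3 and 0.091 for Dusp6, and Dusp6 became -0.073 in 1X and 0.015 in the difference. With TPM at pseudocounts 0.1 and 1, Fgfr1 became 0.0352 and 0.0348 in 2X and 0.21 and 0.21 in 2X against 1X cytokine. In 2X against 1X cytokine, Spry1 became 0.071 and 0.040, Spry4 0.0024 and 0.0019, and Dusp6 0.19 and 0.18. Spry4 became 0.097 and 0.090 in 1X and 0.14 and 0.12 in 2X against 1X PBS, and Etv5 -0.32 and -0.31 in the difference. Without both 1X replicate 1 libraries, Fgfr3 was -0.39 in 2X against 1X cytokine, Spry1 -0.076 and Spry4 0.21 in 1X, Spry4 0.079 in 2X against 1X PBS, and Etv4 -0.88 and Etv5 -1.35 in the difference.

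Leaving out single libraries gave sign changes within these ranges. In 1X they were -0.00014 to 0.36 for Fgfr2, -0.22 to 0.34 for Spry1, -0.23 to 0.099 for Spry4, -0.23 to 1.04 for Etv4, -0.10 to 1.33 for Etv5 and -0.011 to 0.29 for Dusp6. In 2X they were -0.073 to 0.0061 for Fgfr1 and -0.24 to 0.12 for Spry4. In 2X against 1X cytokine they were -0.13 to 0.10 for Fgfr1, -0.39 to 0.34 for Fgfr3, -0.43 to 0.12 for Spry1, -0.27 to 0.17 for Spry4 and -0.22 to 0.081 for Dusp6. In 2X against 1X PBS they were -0.14 to 0.080 for Spry4, -0.022 to 1.26 for Etv4 and -0.021 to 1.42 for Etv5. In the difference they were -0.22 to 0.20 for Spry4, -0.63 to 0.66 for Etv4 and -1.03 to 0.39 for Etv5.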
